A study of Arabidopsis thaliana with 2 samples.

Results

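Pathogenesis-related (PR) proteins are the secreted or vacuolar proteins that plants accumulate during defence. The 9 genes described here are 3 standard readouts of salicylate signalling, PR1 (AT2G14610), BGL2 (also called PR2, AT3G57260) and PR5 (AT1G75040), and 6 genes of the ethylene and jasmonate branch, HCHIB (also called PR3, AT3G12500), PR4 (AT3G04720), PDF1.2 (AT5G44420), PDF1.2c (AT5G44430), ERF1 (AT3G23240) and ORA59 (AT1G06160). They were taken by locus, as a set chosen with earlier results of these data known. All 9 had a usable probe, among 16955 genes tested and 26374 genes with a probe on the array.

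Young leaves of 30-day Arabidopsis thaliana plants (Columbia-0) were compared between wild-type plants and a transgenic line in the same background, 35S:NROB #2. The labels give 16 h of light and 8 h of dark for both arrays. The 35S prefix names a strong viral promoter that is active in most plant tissues. NROB is not explained in the sources used here, and the number was read as marking 1 transgenic line. No probe carried the name NROB, so the transgene was not checked. Each of 2 arrays, called biological replicates 1 and 2 in the labels, held wild-type RNA in Cy5 and 35S:NROB #2 RNA in Cy3. Genotype and dye therefore cannot be told apart, whether plants were pooled is not stated, and precision is limited by there being 2 arrays. In whole leaves, more cells that express a gene and more RNA per cell cannot be told apart.

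The leaf label was checked with marker genes. All 6 photosynthetic leaf markers were measured, with summed wild-type intensities of 624119 and 680867 on arrays 1 and 2 and summed 35S:NROB #2 intensities of 620066 and 544413. None of 5 flower markers or 3 seed markers, and 1 of 4 root markers (SHR), had a probe with the deposited flag P on both arrays. The flower marker PI stood at 6.21 and 7.49 in wild-type leaves and at 28.9 and 90.2 in the transgenic leaves, flagged A on both arrays, and its part in the results was not tested. The median log2 ratio of the leaf markers was -0.02 on array 1 and -0.48 on array 2.

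In Arabidopsis, salicylate acts through the co-activator NPR1 and its TGA partner factors to switch on PR1, BGL2 and PR5. Ethylene stabilises the factor EIN3, which switches on ERF1, and ERF1 and ORA59 in turn activate PDF1.2, HCHIB and related genes. ORA59 also receives the jasmonate signal. Salicylate is known to repress the jasmonate and ethylene branch in many settings, which is why the 2 sets of genes are often read side by side.

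All 9 genes had higher intensities in 35S:NROB #2 than in wild type on both arrays, where 37.8% of all tested genes were higher on both and 43.3% lower on both. In each of the 9 both transgenic values lay above both wild-type values, as they did for 23.2% of all tested genes. PR1 rose 87.0-fold and was the only one of the 9 to pass limma at an adjusted p under 0.05, which 0.236% of all tested genes passed as higher and 0.0118% as lower. At an unadjusted limma p under 0.05, 8 of the 9 passed, against 15.5% of all tested genes as higher and 17.6% as lower. The study asked for a mean change over 2-fold in at least 2 replicates. This fold rule was read here as a mean over 2-fold with the same sign on both arrays. It was met by 8 of the 9, against 4.83% of all tested genes as higher. ORA59 was the exception. If each array had to exceed 2-fold, PDF1.2 and PDF1.2c would not meet it either, at 1.45-fold and 1.69-fold on array 1. Log2 ratios below are 35S:NROB #2 over wild type, as mean ± SD of the 2 arrays, with limma's 95% interval for the mean. Intensities are the normalized channel values on a linear scale and compare 1 probe between channels, not 1 gene with another.

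PR1, a small secreted protein and the most used readout of salicylate signalling, stood at 168 and 185 in wild type (arrays 1 and 2, in this order throughout) and at 11258 and 20928 in 35S:NROB #2. Its values in wild type were close together and far below both transgenic values. The log2 ratio was 6.06 and 6.82, a mean of 6.44 ± 0.53 (n = 2), with an interval from 5.80 to 7.09 and a limma adjusted p of 0.0244. Among all tested genes this mean ranked 5, and PR1 ranked 6 on each array taken alone. With 50 added to every intensity the mean was 6.09, and PR1 was still called.

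BGL2, a beta-1,3-glucanase that cleaves fungal cell wall glucan, stood at 5842 and 2888 in wild type and at 54047 and 58130 in 35S:NROB #2. The transgenic values were alike, and the wild-type value was lower on array 2. The log2 ratio was 3.21 and 4.33, a mean of 3.77 ± 0.79 (13.6-fold), with an interval from 2.88 to 4.66 and a limma adjusted p of 0.0517.

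PR5, a thaumatin-like protein, stood at 6349.8 and 3591 in wild type and at 43971 and 49481 in 35S:NROB #2. As for BGL2, the arrays differed mainly in the wild-type value. The log2 ratio was 2.79 and 3.78, a mean of 3.29 ± 0.70 (9.77-fold), with an interval from 2.48 to 4.09 and a limma adjusted p of 0.0517.

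**Figure D1:**
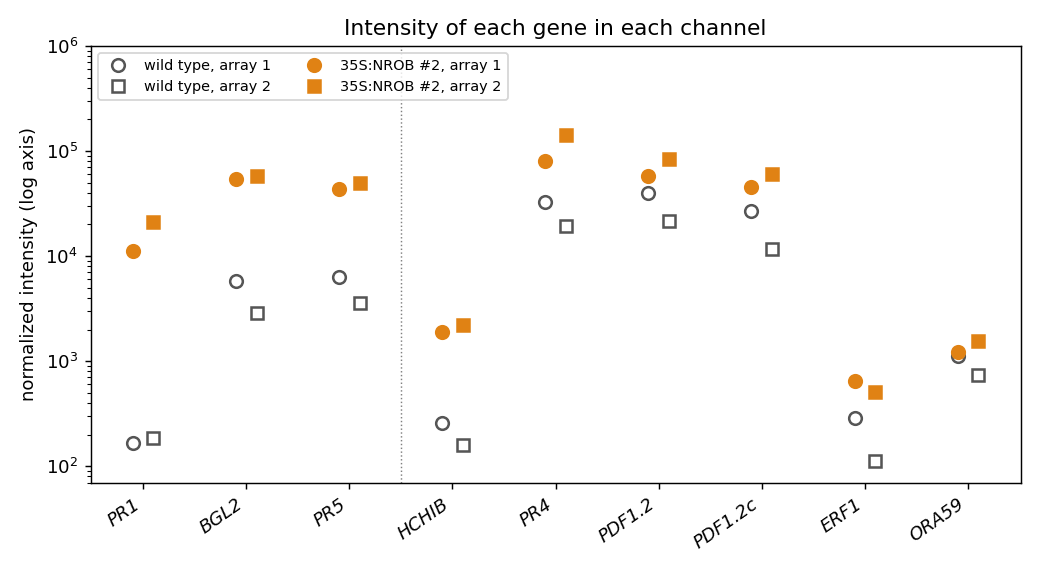
Normalized intensity of each of the 9 genes (log axis) in wild type (open grey symbols) and 35S:NROB #2 (filled orange symbols), with array 1 as circles and array 2 as squares. The dotted line divides the salicylate 3 (left) from the other 6, and each transgenic value lies above both wild-type values of its gene, by the most for PR1 (168 and 185 against 11258 and 20928) and by the least for ORA59.

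HCHIB, a basic chitinase of the vacuole, stood at 260.3 and 160.1 in wild type and at 1892 and 2222 in 35S:NROB #2. Its log2 ratio was 2.86 and 3.79, a mean of 3.33 ± 0.66 (10.04-fold), with an interval from 2.57 to 4.09 and a limma adjusted p of 0.0517. HCHIB thus lay beside PR5 rather than beside the other genes of its own branch, with a difference from PR5 of 0.07 on array 1 and 0.01 on array 2. This holds for the PR5 probe used. The other PR5 probe, also flagged P on both arrays, stood lower, at 1.93 on array 1 and 2.72 on array 2.

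BGL2, PR5 and HCHIB missed the threshold by little, and their calls depended on the setting. Each was called in 8 of 10 alternatives that kept the pairing of channels, with limma adjusted p from 0.0285, 0.0296 and 0.0280 up to 0.0737. The alternatives without a call of these 3 genes were the one that took in probes with a P flag on a single array, the source of the 0.0737, and the series matrix, which holds the same log2 ratios and left all 3 at 0.0517.

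PR4, a hevein-like protein, stood at 32952 and 19541 in wild type and at 79486 and 141209 in 35S:NROB #2. The log2 ratio was 1.27 and 2.85, a mean of 2.06 ± 1.12 (4.18-fold), with an interval from 0.84 to 3.28 and a limma adjusted p of 0.0797. Both channels moved apart from array 1 to array 2, so that the fold on array 2 (7.23) was larger than that on array 1 (2.41).

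PDF1.2 and PDF1.2c encode plant defensins, short cysteine-rich antifungal peptides, and lie next to each other in the genome. PDF1.2 stood at 40166 and 21363 in wild type and at 58292 and 84678 in 35S:NROB #2, a log2 ratio of 0.54 and 1.99 with a mean of 1.26 ± 1.02 (2.40-fold). PDF1.2c stood at 26690.3 and 11701 in wild type and at 45061 and 60885 in 35S:NROB #2, a log2 ratio of 0.76 and 2.38 with a mean of 1.57 ± 1.15 (2.96-fold). Both were under 2-fold on array 1 and near 4-fold or above on array 2. Their intervals ran from 0.14 to 2.38 and from 0.32 to 2.81, and their limma adjusted p values were 0.128 and 0.11. The genes are near-identical in sequence and the probe sequences were not used here, so signal shared between their probes was not tested.

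ERF1, an ethylene response factor directly downstream of EIN3, stood at 289 and 113 in wild type and at 652 and 509.8 in 35S:NROB #2. The log2 ratio was 1.17 and 2.17, a mean of 1.67 ± 0.70 (3.18-fold), with an interval from 0.87 to 2.48 and a limma adjusted p of 0.0694. Its mean intensity lay below the lower quartile of the tested genes. ORA59, the factor that integrates jasmonate and ethylene, stood at 1118 and 735 in wild type and at 1222 and 1548 in 35S:NROB #2. Its log2 ratio of 0.13 on array 1 and 1.07 on array 2 gave a mean of 0.60 ± 0.67 (1.52-fold), with an interval from -0.17 to 1.37 that includes 0 and a limma adjusted p of 0.213. ERF1 exceeded ORA59 by 1.04 on array 1 and 1.09 on array 2.

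**Figure D2:**
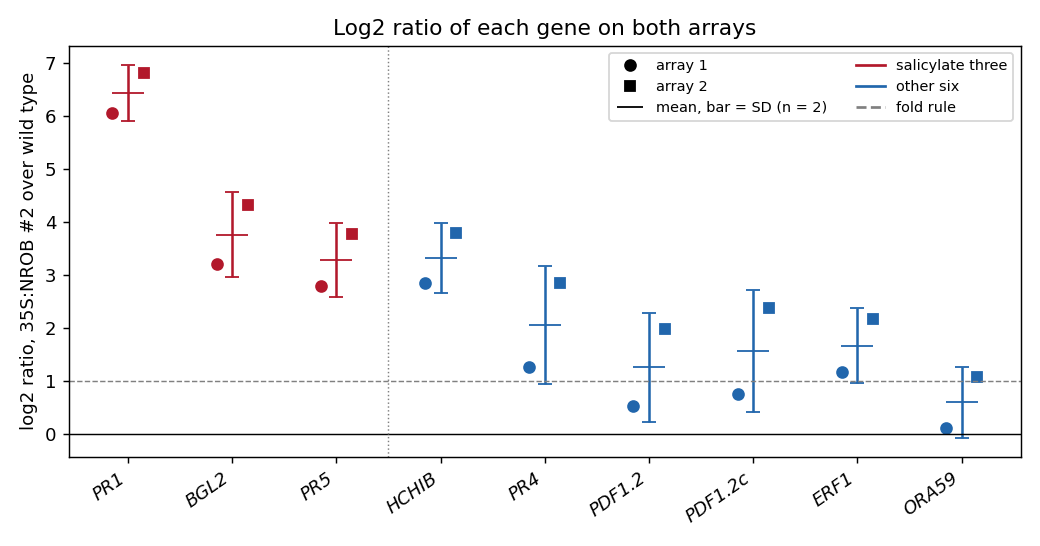
Log2 ratio of 35S:NROB #2 over wild type for each gene on array 1 (circle) and array 2 (square), with the mean and SD of both arrays (n = 2), the salicylate 3 in red and the other 6 in blue. The dashed line marks a 2-fold change, which ORA59 does not reach on average (0.60) and which PDF1.2, PDF1.2c and ORA59 do not reach on array 1.

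By mean log2 ratio the order was PR1, BGL2, HCHIB, PR5, PR4, ERF1, PDF1.2c, PDF1.2 and ORA59. With the PR5 probe used, both arrays gave this order except that ERF1 and PDF1.2c changed places on array 2. With the other PR5 probe, PR5 (2.72) also lay below PR4 (2.85) on array 2. PR1 stood apart from its neighbour BGL2 by 2.85 on array 1 and 2.49 on array 2, more than the SD of either gene. With the PR5 probe used, PR5 and PR4 differed by 1.23, more than the SD of either (0.70 and 1.12). The other PR5 probe had a mean of 2.33, nearer to PR4 (2.06) than to HCHIB (3.33). The remaining neighbours in the order differed by less than their SDs.

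The salicylate 3 had a median log2 ratio of 3.21 on array 1 and 4.33 on array 2, and the other 6 had medians of 0.96 and 2.27. On both arrays the median of the salicylate 3 was the value of BGL2, so the sizes of PR1 and PR5 do not enter it. The difference of the medians was 2.25 and 2.06, a mean of 2.15 ± 0.13 (n = 2), and both groups were larger on array 2. The means ran from 3.29 to 6.44 in the salicylate 3 and from 0.60 to 3.33 in the other 6, so that the groups overlapped through HCHIB and PR5. No test was made of this difference, since 2 arrays allow a two-sided exact p of 0.5 at the lowest and genes are not replicates. Taken as a difference of means, which PR1 weighs on more, it was 2.75. Over all tested genes the median log2 ratio was -0.01 on array 1 and -0.04 on array 2.

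**Figure D3:**
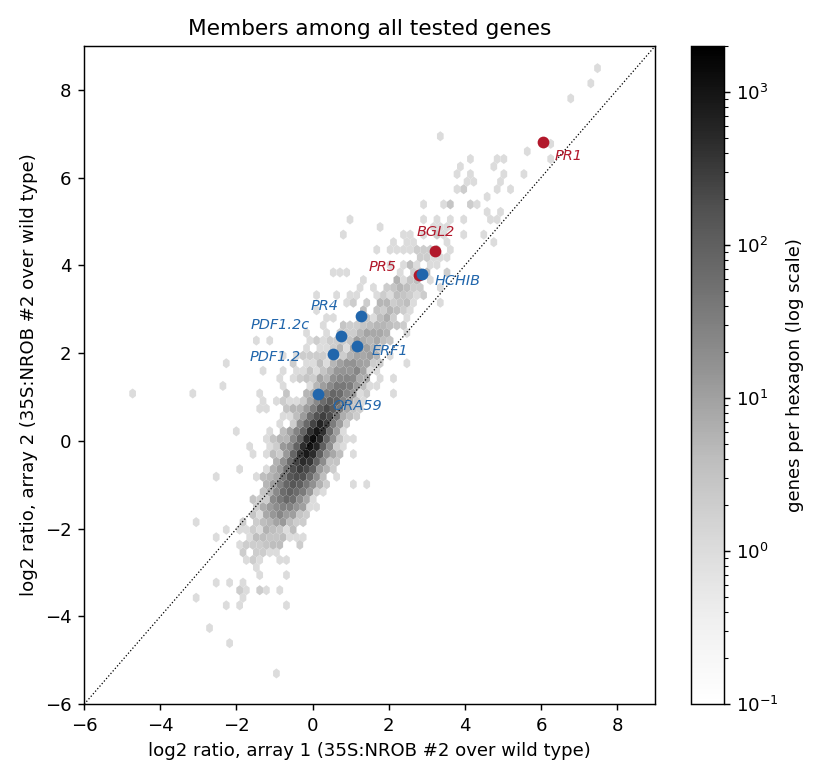
Log2 ratio on array 2 against array 1 for all 16955 tested genes (grey hexagons, darker for more genes) and the 9 named genes (salicylate 3 in red, other 6 in blue), with equality as a dotted line. The 9 genes all lie above the line, from ORA59 (0.13 and 1.07) to PR1 (6.06 and 6.82).

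All 9 genes had a larger log2 ratio on array 2 than on array 1, by 0.76 (PR1) to 1.62 (PDF1.2c). Being higher on both arrays and more so on array 2 was seen in 29.5% of all tested genes, and among the 819 genes past the fold rule as higher 96.2% were larger on array 2. On array 1 alone 6 of the 9 were over 2-fold higher (3.41% of all tested genes), and on array 2 alone all 9 were (6.95%).

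The channels show where that gap arose. Over all tested genes the wild-type intensity was higher on array 2 by a median log2 difference of 0.22 (quartiles 0.11 and 0.32), and the 35S:NROB #2 intensity by 0.21 (quartiles 0.05 and 0.34). The wild-type intensity of 8 of the 9 genes went the other way, being lower on array 2, as for 12.6% of all tested genes. The log2 difference of these 8 ran from -0.60 in ORA59 to -1.35 in ERF1, all below the 5th percentile of all genes, which was -0.20. PR1 was the exception, at 0.14.

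Among these 8 genes, BGL2 stood at -1.02, PR5 at -0.82, HCHIB at -0.70, PR4 at -0.75, PDF1.2 at -0.91 and PDF1.2c at -1.19 in the wild-type channel. Differences as low as these were found in 0.631% (ERF1) to 1.85% (ORA59) of all tested genes. The lower wild-type value thus spanned both branches. In 35S:NROB #2 the picture was mixed. PR1 (0.89) and PR4 (0.83) were higher on array 2 by more than the 95th percentile of all genes, 0.59. ERF1 was lower, at -0.35, and the remaining genes lay between 0.11 and 0.54. For BGL2, PR5 and HCHIB the 35S:NROB #2 differences of 0.11, 0.17 and 0.23 were within the quartiles of all genes, so their gap between arrays came mostly from wild type. For PR1 it came from 35S:NROB #2. The 2 wild-type samples are 1 value each and how the authors normalized between arrays is not given, so these differences carry no test. Among the 819 genes past the fold rule as higher, 61.5% also had a lower wild-type intensity on array 2.

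**Figure D4:**
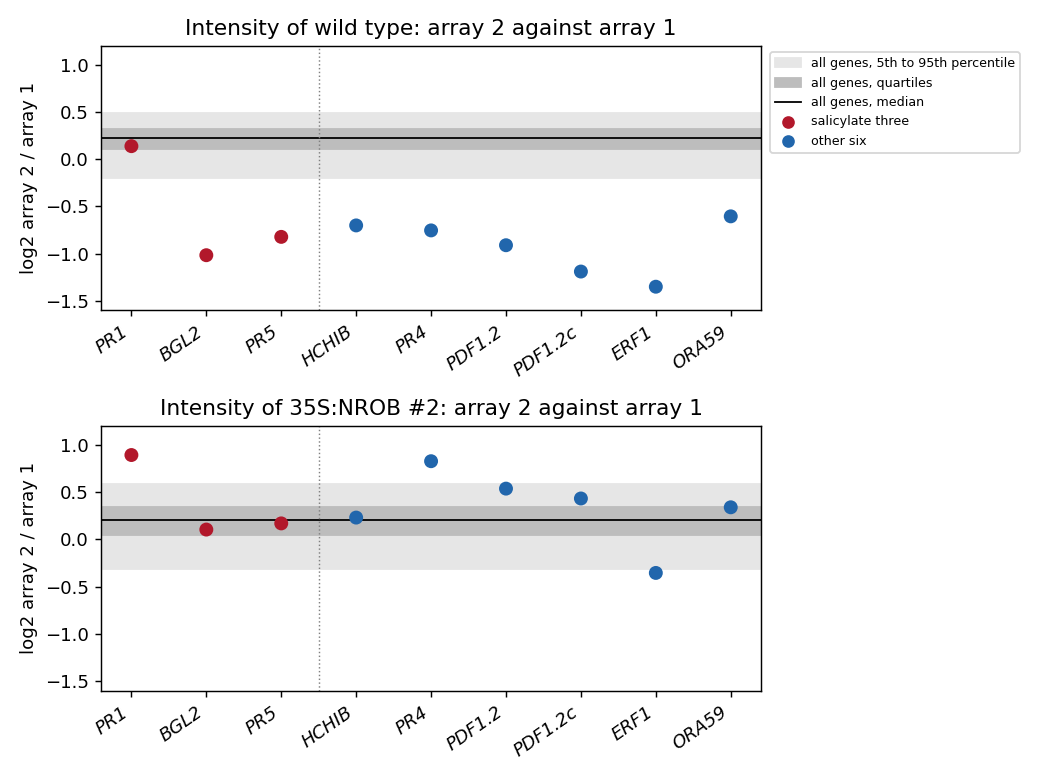
Log2 intensity on array 2 over array 1 for each gene in wild type (top) and 35S:NROB #2 (bottom), with the median, quartiles and 5th to 95th percentiles of all 16955 tested genes as line and bands. In wild type 8 of the 9 genes lie below the 5th percentile of -0.20, and PR1 (0.14) does not, while in 35S:NROB #2 only PR1 and PR4 exceed the 95th percentile.

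The genes nearest to PR1 by the Euclidean distance over the log2 ratios of both arrays were NIT2, a nitrilase (distance 0.17), GSTU10, a glutathione transferase (0.44), and YLS9 (0.45). Those nearest to ERF1 were AT1G09500, annotated as an alcohol dehydrogenase-like protein (0.05), the cytochrome P450 CYP76C6 (0.05) and the receptor-like protein RLP9 (0.06). Each distance rests on 2 log2 ratios. Apart from CYP76C6, the wild-type intensities of these genes were low, from 37.6 (RLP9) to 103 (YLS9). With 50 added to every intensity, NIT2, GSTU10 and YLS9 had means of 5.53, 5.32 and 5.62, against 6.09 for PR1. In that setting AT1G09500, CYP76C6 and RLP9 had means of 1.05, 1.62 and 0.97, against 1.41 for ERF1.

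Other genes of both pathways were read from 5 lists, of which 71 of 81 genes were tested. The counts of each list stand against these shares of all tested genes. On both arrays 37.8% were higher and 43.3% lower. The fold rule was met by 4.83% as higher and 2.85% as lower, and limma by 0.236% and 0.0118%. At an unadjusted limma p under 0.05 the shares were 15.5% and 17.6%. Among 20 genes of salicylate signalling the median log2 ratio was 0.83 (all tested genes, -0.03), 17 genes had higher and 1 had lower values on both arrays. The fold rule was met by 9 as higher, and limma by 0 (lowest adjusted p = 0.0517; 14 higher and 0 lower at an unadjusted p under 0.05). The largest were the transcription factor genes WRKY38 at 4.50 ± 0.86 and WRKY18 at 2.60 ± 0.82, PBS3, an enzyme of salicylate synthesis, at 2.48 ± 0.35, and NIMIN2, whose product binds NPR1, at 2.36 ± 0.32. NPR1 itself stood at 0.51 ± 0.12, and the 6 TGA factor genes ran from -0.03 ± 0.02 (TGA3) to 0.61 ± 0.26 (TGA5).

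Among 20 genes of ethylene synthesis, perception and signalling and of ERF factors the median was 0.02 (-0.0020 on array 1 alone and 0.16 on array 2 alone). On both arrays 6 had higher and 4 had lower values, and the others had opposite signs. The fold rule and limma were met by 0 (lowest limma adjusted p = 0.0801). At an unadjusted limma p under 0.05, 3 were higher and 2 lower, against 15.5% and 17.6% of all tested genes. The largest in size were the receptor gene ETR2 at -0.91 ± 0.43, EFE, an ethylene-forming oxidase, at 0.81 ± 0.34, ERF2 at 0.79 ± 0.64 and ACS6, a synthase of the ethylene precursor, at 0.61 ± 1.25. ACS6 had opposite signs on the arrays, being lower on array 1 (-0.28) and higher on array 2. It was not alone in this. ERF104 stood at -0.67 and 1.12, ERF5 at -0.77 and 0.77 and ERF6 at -0.75 and 0.58. Their means near 0 thus average opposite values and do not show unchanged genes. EIN2 and EIN3, the central steps of ethylene signalling, stood at 0.02 ± 0.16 and 0.19 ± 0.07. These values leave out ACS2, ACO1 and ERF14 of the list, which were flagged A on both arrays. Their log2 ratios were 4.13 and 4.31 for ACS2, -0.56 and -1.33 for ACO1 and -0.07 and 0.01 for ERF14.

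Among 16 genes of jasmonate synthesis and of the branch that the factor MYC2 controls, the median was 0.06, and 3 genes had higher and 7 had lower values on both arrays. The sign of this median turned with the setting, from -0.11 on array 1 alone to 0.15 on array 2 alone, and it was -0.04 with the probes of a gene averaged. The fold rule was met by 2 in each direction and limma by 0 (lowest adjusted p = 0.0517; 2 higher and 3 lower at an unadjusted p under 0.05). VSP1 and VSP2, vegetative storage proteins and the usual markers of that branch, stood at -1.48 ± 0.27 and -1.43 ± 0.29. TAT3, a tyrosine aminotransferase, stood at 3.34 ± 1.51 and the repressor gene JAZ5 at 1.37 ± 1.03. The share of all tested genes that passed the fold rule as lower was 2.85%.

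Close relatives of the 9 genes did not all share their direction. Among 9 tested members of the PR families the median was 1.03, with 5 past the fold rule as higher and 2 as lower. The median was 0.51 on array 1 alone, 1.54 on array 2 alone and 2.06 without the dimmest genes. The chitinase CHI (AT2G43570) rose, at 4.87 ± 0.72 (limma adjusted p = 0.0472), a call that was lost when probes with a P flag on a single array were taken in (limma adjusted p = 0.0681). CHIA, an acidic endochitinase, stood at 2.42 ± 0.59, BG3, a beta-1,3-glucanase related to BGL2, at 2.17 ± 0.22 and EP3, a class IV chitinase, at 2.06 ± 0.66. The 2 past the fold rule as lower were PR-1-LIKE (-1.35 ± 0.56) and the thaumatin-like ATLP-1 (-1.01 ± 0.53), relatives of PR1 and PR5, named after their values were seen.

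The 6 other plant defensins split in the same way, with 3 above and 3 below 0 on both arrays and a median of 0.49. That median was 0.10 on array 1 alone and 1.09 on array 2 alone, and it turned to -0.21 without the flag filter, where more genes of the list are measured. PDF1.2b and PDF1.3, which are close in sequence to PDF1.2, stood at 1.43 ± 1.21 and 1.52 ± 1.09, and PDF1.4 at 2.32 ± 2.03. PDF2.2, of another subfamily, stood at -1.45 ± 0.69. None of the 6 passed limma (0 calls; lowest adjusted p = 0.0753; 3 higher and 2 lower at an unadjusted p under 0.05).

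**Figure D5:**
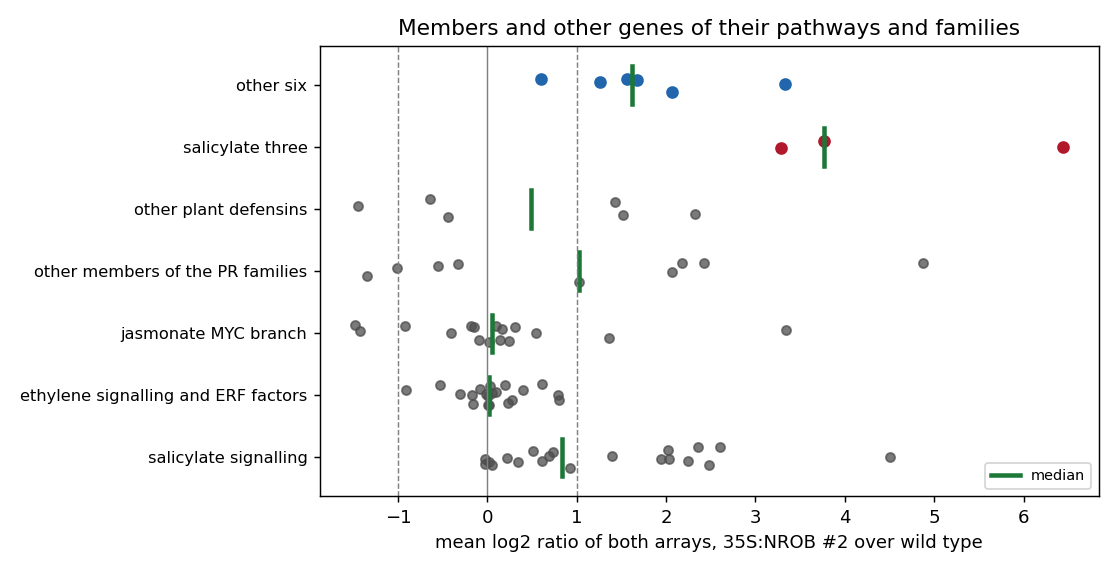
Mean log2 ratio of both arrays for each tested gene of the 5 lists (grey) and for the salicylate 3 (red) and other 6 (blue), with the median of each row as a green bar, dashed lines at a 2-fold change, and vertical jitter within rows for display. The salicylate signalling row spreads upward to 4.50 (WRKY38), while the ethylene signalling row stays between -0.91 and 0.81.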

How the data were processed

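The submitters' processing notes name Agilent Feature Extraction 8.5.1.1. Per the file headers, the deposited table holds a normalized intensity of each channel and a log2 ratio with 35S:NROB #2 as the divisor. How the authors normalized is not stated. The deposited values of the series matrix are the same log2 ratios with the sign turned. Array 2's wild-type header also carries the transgene's name, and it was read as wild type because the deposited log2 ratio is reached with it. Of 43603 gene probes, 58.1% had the deposited flag P, whose meaning is not stated, on both arrays, and these were kept. Lowest wild-type intensities flagged P were 28.0 and 25.4. Probes were named through RefSeq's table of assembly TAIR10.1, and each gene took its brightest kept probe.

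Log2 ratios were turned to 35S:NROB #2 over wild type and fitted with limma 3.58.1 in R 4.3.3 (intercept, eBayes, Benjamini-Hochberg over 16955 genes), with 1 residual and 2.71 prior degrees of freedom. Across all genes, 40 were called higher and 2 lower, or 95.2% higher, against 75.7% after median centring, 76.6% after loess and 64.8% after quantile normalization. Python 3.11.15 read the tables. All 9 genes are named, with up to 4 genes of largest size from each of 5 lists and the 3 nearest genes to PR1 and ERF1. NPR1, the TGA genes, EIN2, EIN3, ERF104, ERF5, ERF6, PR-1-LIKE, ATLP-1 and the relatives outside the test were named beyond this rule, after their values were seen. List genes needed a matching symbol and locus. The members and lists were chosen with earlier results of these data known. Tested genes had median wild-type intensities of 1092 and 1244, and median 35S:NROB #2 intensities of 1087 and 1246.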

Additional observations from a re-analysis of the deposited data

Results flagged for a closer look

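Probes of PR5 and HCHIB outside the comparison also carried signal above the wild-type channel. The other probe of PR5, flagged P on both arrays but less bright, had a mean log2 ratio of 2.33 (1.93 on array 1 and 2.72 on array 2), against 3.29 for the probe used. The PR5 probes therefore differ in size but not in direction. The other probe of HCHIB, flagged A on both arrays, had a mean of 3.43 (3.38 and 3.49), from 8.94 and 11.0 in wild type to 93.0 and 123 in 35S:NROB #2. Those wild-type values lie below the lowest intensities flagged P. Set against these lowest intensities, that probe was 4.01-fold higher in 35S:NROB #2, without a test. The flag's meaning is not stated, and probes flagged A reached 50.1 and 66.0 in their dimmer channel, so 4.01-fold is no firm lower limit.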

How the results depend on the processing

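The direction of all 9 genes was the same in every alternative run, and PR1 was called in each alternative with a test. Of the 9, 1 was called, 4 (PR1, BGL2, PR5 and HCHIB) without the flag filter, with the probes of a gene averaged, without the dimmest genes (lower quartile), with 50 added, after median centring, loess or quantile normalization and with an intensity trend, and 8 with no replicate block, that is, without the pairing of channels within arrays. Over all genes, 40 higher and 2 lower calls became 24 and 1 (P on at least 1 array), 1070 and 418 (no flag filter), 462 and 148 (mean of probes), 234 and 86 (dimmest genes left out), 521 and 212 (50 added), 507 and 163 (median centring), 512 and 156 (loess), 700 and 380 (quantile), 1474 and 1468 (no replicate block) and 618 and 303 (trend). The cause was not tested. Genes past the fold rule numbered 1302, but 2804 without the flag filter and 710 without the dimmest genes, where fewer genes are tested and ERF1 is left out. With 1 array left out no test remains; genes past the fold rule then ranged from 796 (without replicate 2) to 2215 (without replicate 1), members past it from 6 to 9, and the difference between the salicylate 3 and the other 6 from 2.06 to 2.25. That difference was 2.75 as a difference of means, against 2.15. ACS6 changed sign without replicate 2 (-0.28, against 1.498 without replicate 1). Dim probes are limited by the flags: 9419 genes lacked a probe with P on both arrays.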

Other observations

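Some listed relatives lacked a probe with P on both arrays and stayed outside the test, and they are given as intensities chosen from the lists without the flag filter. OSM34, an osmotin of the same thaumatin-like family as PR5, stood at 11.0 and 74.4 in wild type and at 312 and 1429 in 35S:NROB #2. With wild-type values below the lowest intensity flagged P raised to it, OSM34 was 14.6-fold higher. Folds reached in this way are no firm lower limits, since probes flagged A reached 50.1 and 66.0 in their dimmer channel. ACS2, a synthase of the ethylene precursor, stood at 14.97 and 17.0 in wild type and at 262 and 337 in 35S:NROB #2. It was 11.1-fold higher when treated in the same way. BG1, a beta-1,3-glucanase related to BGL2, stood at 23.5 and 10.5 in wild type and at 200.2 and 301 in 35S:NROB #2. Its fold in the same way was 9.18. PRB1, the basic relative of PR1, stood at 7.50 and 7.48 in wild type and at 11.3 and 19.3 in 35S:NROB #2, below the lowest intensities flagged P in both. The defensin PDF2.1 stood at 52.1 and 66.3 in wild type and at 7.22 and 9.39 in 35S:NROB #2. With its 35S:NROB #2 values raised to the lowest intensity flagged P in that channel, PDF2.1 was 1.39-fold lower. PDF1.1 and ERF14 stood between 6.68 and 7.93 in all channels. ACO1, an oxidase of ethylene synthesis, stood at 40.6 and 59.1 in wild type and at 27.5 and 23.5 in 35S:NROB #2, and JAZ10 at 101 and 60.4 against 54.4 and 41.8.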
